A study of Mus musculus with 3 samples.

Results

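The miR-34 and miR-449 family was described in EVs of the PND7 mouse testis. Its members were the entries of the authors' catalogues of type mature or hairpin whose identifier names miR-34a, miR-34b, miR-34c, miR-449a, miR-449b or miR-449c. They were chosen by name and not by a cut on their level, but with earlier results of these data known. A mature entry counts reads assigned to a mature miRNA, and a hairpin entry carries the same name but holds reads that the authors assigned to the stem-loop precursor. The rule found 10 entries, 4 mature and 6 hairpin, of 1347 mature and hairpin entries in the series. Small RNA was sequenced from 3 libraries of a single condition, with no comparison group. Each library came from EVs of 10 male C57/BL6 mice at postnatal day 7, and the EVs were recovered from the supernatant of testes dissociated with Accumax and treated with proteinase K and RNase A. The titles name PND7 testis EVs and carry the word treated, but no label says what was treated or with which agent. The libraries were taken as testis EVs, the material that the titles name. For small RNA sequencing, the paper's statistics section names EV-treated primary spermatogonia beside testis EVs. The number of cultures per group given there differs from the 3 samples of its supplement. The EVs can stem from any cell type of the testis and come from pooled animals, so a level cannot be assigned to a cell type or to a mouse.

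miR-34 and miR-449 are a conserved family of miRNAs that share the bases through which they recognise their targets, the seed. Mir34a is induced by the tumour suppressor p53 and is transcribed in many tissues, where it is known for restraining the cell cycle. Mir34b and Mir34c are made from a common transcript, as are the miR-449 genes, and both groups are known from multiciliated epithelia and from germ cells that enter meiosis and form spermatids. Mice without both groups are infertile, with defects of sperm formation and of the efferent ducts.

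The sequences below are shown because they tell which members act through the same seed and which arm of each precursor was counted. Of 10 mature names in the catalogues or the RefSeq table, 9 had a sequence there (build GRCm38.p6). miR-34c-5p had none. Bases 2 to 8, the seed, are in capitals.
miR-34a-5p: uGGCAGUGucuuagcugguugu
miR-449a-5p: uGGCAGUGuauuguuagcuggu
miR-34b-5p: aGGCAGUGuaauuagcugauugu
miR-449c-5p: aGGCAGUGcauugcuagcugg
miR-34b-3p: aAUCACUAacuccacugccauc
miR-34c-3p: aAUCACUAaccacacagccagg
miR-34a-3p: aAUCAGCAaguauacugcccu
The first 4 share the seed GGCAGUG, and no other mature miRNA of the table carries it. miR-34b-3p and miR-34c-3p share the seed AUCACUA, again with no other miRNA of the table, while the seed of miR-34a-3p is its own. Compared base by base from the 5′ end, miR-34a-5p and miR-449a-5p differ at 7 of 22 bases and are identical over the first 9. miR-34b-3p and miR-34c-3p differ at 5 of 22 bases, the first of them at position 11. A read of nearly full length therefore holds bases that separate each pair, but the mismatches allowed by the authors in mapping are not given in the sources used here.

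The stem-loops from which the counted members come are shown with the counted mature arm in capitals.
Mir34a: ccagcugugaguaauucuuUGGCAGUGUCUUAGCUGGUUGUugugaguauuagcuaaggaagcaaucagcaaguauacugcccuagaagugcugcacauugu
Mir449a: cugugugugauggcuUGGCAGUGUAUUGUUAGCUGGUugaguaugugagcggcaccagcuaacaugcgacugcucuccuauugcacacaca
Mir34b: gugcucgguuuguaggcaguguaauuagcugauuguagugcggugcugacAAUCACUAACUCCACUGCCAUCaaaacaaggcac
Mir34c: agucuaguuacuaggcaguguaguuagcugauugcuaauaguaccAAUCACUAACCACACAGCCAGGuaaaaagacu
Mir34a and Mir449a were represented by the 5′ arm, at bases 20 to 41 and 16 to 37 of their stem-loops, and Mir34b and Mir34c by the 3′ arm, at bases 51 to 72 and 46 to 67. In the GENCODE vM21 annotation of GRCm38, Mir34a lies on the plus strand of chromosome 4 from 150068454 to 150068555, where it overlaps an exon of Gm37795, a gene of type TEC. Mir34b, from 51103562 to 51103645, and Mir34c, from 51103034 to 51103110, are neighbours on the minus strand of chromosome 9, in an intron of Btg4, which is transcribed from the opposite strand. Mir449a, from 113037534 to 113037624, Mir449b, from 113037419 to 113037498, and Mir449c, from 113035983 to 113036091, lie on the plus strand of chromosome 13 in an intron of Cdc20b, which has the same orientation.

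The libraries held 25716952, 26002463 and 27939308 clean reads in replicates 1, 2 and 3, of which 870967, 1005836 and 966468 were counted on mature miRNAs and 493345, 612122 and 577529 on hairpin entries. The entries listed in each catalogue added up to these totals. Of the lists of marker miRNAs, that of gonadal somatic cells (miR-202 and miR-140, known from Sertoli cells) held 2.60% ± 0.433 of the mature counts (SD, n = 3), and miR-202-5p ranked 12 of 604 mature miRNAs. Endothelial miR-126a and the smooth muscle miRNAs miR-143 and miR-145a held 1.25% ± 0.425 and 1.29% ± 0.0849. Erythroid, leukocyte and striated muscle lists held at most 0.104% in any library, the liver miRNA miR-122-5p had at most 0.994 CPM and the neural miR-9-5p at most 23.9 CPM.

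miR-34a-5p carried most of the mature counts of the family in every library. It had 14197, 9332 and 12634 mature counts in replicates 1, 2 and 3, or 16300.3, 9278 and 13072 counts in 1000000 mature counts (CPM), with a mean of 12884 ± 3515 (SD, n = 3). Replicate 1 was the highest and replicate 2 the lowest. miR-449a-5p followed with 385, 1066 and 630 counts, or 442, 1060 and 652 CPM, and here replicate 2 was the highest and replicate 1 the lowest. miR-34b-3p had 115, 65 and 23 counts and miR-34c-3p 22, 140 and 0. The whole family held 1.69%, 1.05% and 1.37% of the mature counts in replicates 1, 2 and 3. The exact binomial (Clopper-Pearson) 95% intervals of these shares, from 1.66% to 1.72%, 1.03% to 1.07% and 1.35% to 1.40%, do not overlap, so the libraries differed by more than counting error. Such intervals cover counting error only. In RNA pooled from a tissue, fewer vesicles from a cell type and less RNA per vesicle cannot be told apart.

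**Figure D1:**
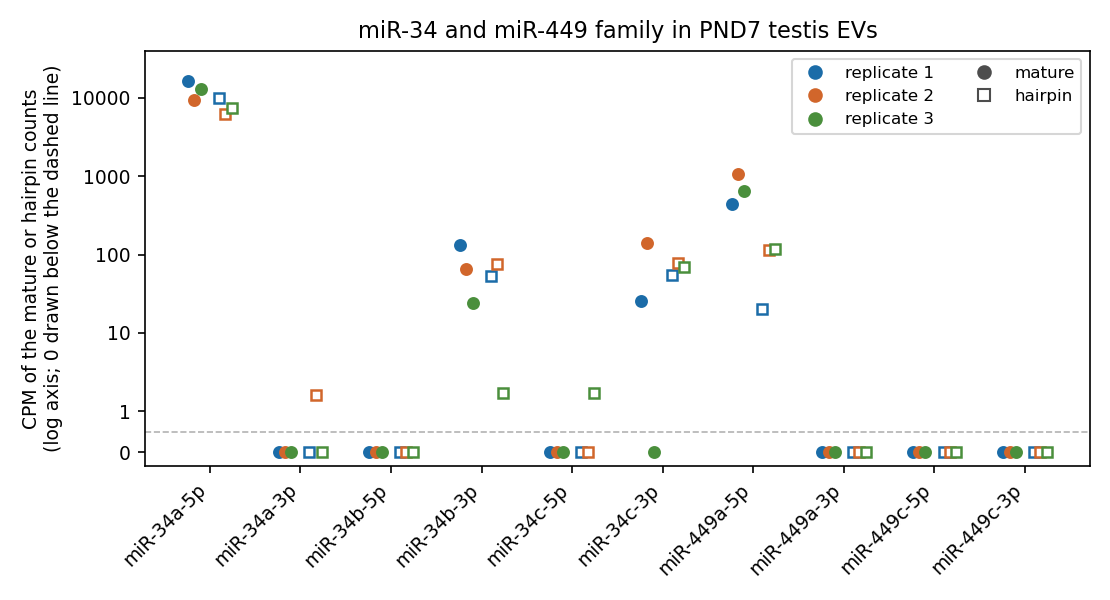
Level of each named arm of the family in CPM of the mature counts (filled circles) or of the hairpin counts (open squares) of its library, on a log axis, with 1 point for each of the 3 replicates and counts of 0 drawn below the dashed line. miR-34a-5p lies highest, with 16300.3, 9278 and 13072 CPM as mature, miR-449a-5p between 442 and 1060 CPM as mature, and 6 of the 10 names have no mature count.

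The remaining names had no mature count in any library. miR-34a-3p, the arm opposite miR-34a-5p, and miR-34c-5p each had a single hairpin count, in replicate 2 and replicate 3, and 0 mature counts. A limit of 3 counts corresponds to 3.44, 2.98 and 3.10 CPM in replicates 1, 2 and 3. The exact binomial 95% intervals of these zero counts reach somewhat higher, to 4.24, 3.67 and 3.82 CPM. miR-34b-5p, miR-449a-3p, miR-449c-5p and miR-449c-3p were listed in no catalogue, nor was any entry of miR-449b, and under the rule they count as 0. Whether the authors' database held these names is not given in the sources used here. With the limit of 3 counts put in place of 0, miR-34a-5p lay 4732-fold, 3111-fold and 4211-fold above miR-34c-5p in replicates 1, 2 and 3. The same values hold against miR-34a-3p. A test of ratios to names at 0 has a fixed outcome, and these values are given as a description.

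By name, counting of a single arm was common in these libraries. Among 436 names with an arm counted as mature, 68.6% had 1 arm only, and 160 of them the 5′ arm and 139 the 3′ arm. Arms were paired by the part of the name before the arm. A miRNA with several gene copies can carry different names on its arms, which then count as separate names with 1 arm each. A name is thus not always a precursor, and the share with 1 arm can be too high. All 4 precursors of the family with a mature count had 1 arm counted. Of the 16 names whose counts reached at least those of miR-34a-5p, miR-34a itself included, 9 had 1 arm only. This number rests on the same pairing by name and can be too high as well. For Mir34b and Mir34c the counted arm is the one without the seed GGCAGUG, so that the mature counts with this seed came from miR-34a-5p and miR-449a-5p.

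Within the family, miR-34a-5p made up 96.5%, 88.0% and 95.1% of the mature counts in replicates 1, 2 and 3. The miR-449 cluster, through miR-449a-5p, contributed 2.62%, 10.1% and 4.74%, and Mir34b and Mir34c together 0.931%, 1.93% and 0.173%. The loci best known from meiotic germ cells and multiciliated cells, those other than Mir34a, thus held between 3.55% and 12.0% of the mature counts of the family. Most of its mature counts came from miR-34a-5p, a member that is not particular to germ cells. Names listed in no catalogue count as 0 here. The share of the loci other than Mir34a would thus be too low if the authors' database lacked these names. The order of the 3 loci was the same in every library, and their shares did not overlap between loci. miR-34a-5p exceeded miR-449a-5p 36.9-fold in replicate 1, 8.75-fold in replicate 2 and 20.1-fold in replicate 3, a log2 ratio of 4.22 ± 1.04 (SD, n = 3) that was not tested. miR-449a-5p in turn lay above miR-34b-3p and miR-34c-3p in every library. Between miR-34b-3p and miR-34c-3p the order changed, with miR-34b-3p ahead in replicates 1 and 3 and miR-34c-3p ahead in replicate 2. Without replicate 2, the mean share of the miR-449 cluster was 3.68% in place of 5.80%, and that of Mir34b and Mir34c 0.552% in place of 1.01%.

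Among the 604 mature miRNAs, miR-34a-5p ranked 15 by mean CPM, and it ranked 14, 22 and 15 in replicates 1, 2 and 3. miR-449a-5p ranked 83, miR-34b-3p 211 and miR-34c-3p 235. The neighbours of miR-34a-5p in this order were let-7d-5p with 20790.5 ± 3866 CPM and miR-379-5p with 14723 ± 2878 CPM above it, and miR-99b-5p with 12535 ± 1226 CPM and miR-22-3p with 12533 ± 1929 CPM below it (SD, n = 3 each). let-7d-5p, a let-7 member, was above miR-34a-5p in all 3 libraries, by between 0.06 and 1.16 on the log2 scale. miR-379-5p, of an imprinted cluster, and miR-99b-5p and miR-22-3p were above it in replicate 2 only, so that their order with miR-34a-5p changed between libraries. These miRNAs were chosen for their closeness in mean CPM, and no test was made.

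**Figure D2:**
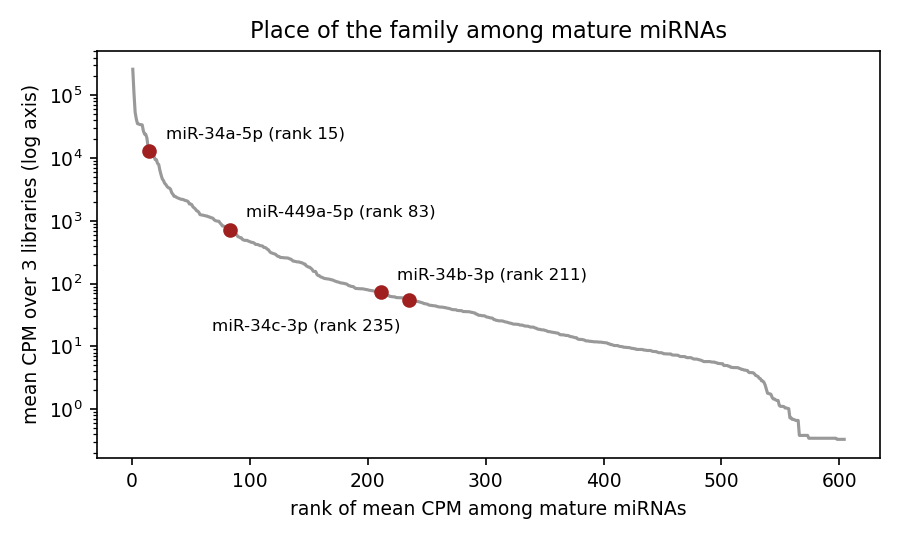
Mean CPM over the 3 libraries of the 604 mature miRNAs (grey line, log axis) against their rank, with the 4 counted members of the family as red points. miR-34a-5p lies at rank 15 and miR-449a-5p at rank 83, while miR-34b-3p and miR-34c-3p lie at ranks 211 and 235.

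Summed by seed, the miRNAs with GGCAGUG had 14582, 10398 and 13264 mature counts in replicates 1, 2 and 3, or 1.36% ± 0.320 of the mature counts (SD, n = 3). This seed ranked 9 of 361 seeds by its mean share. The ranking covers the 442 of 604 mature miRNAs that had a sequence in the RefSeq table, which held 96.3%, 95.9% and 96.1% of the mature counts. The seed AUCACUA of the 3′ arms of Mir34b and Mir34c had 137, 205 and 23 counts and ranked 105.

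The members did not vary together between libraries. miR-34a-5p had its lowest level in replicate 2, whereas miR-449a-5p and miR-34c-3p had their highest there, and miR-34b-3p was highest in replicate 1 with 132 CPM against 64.6 and 23.8 CPM in replicates 2 and 3. For miR-34c-3p, the 140 counts of replicate 2 stand against 22 in replicate 1 and 0 in replicate 3. The highest level exceeded the lowest 1.76-fold for miR-34a-5p, 2.40-fold for miR-449a-5p and 5.55-fold for miR-34b-3p. At least a 2-fold range was found in 2 of these 3 members, beside 40.4% of 272 mature miRNAs that reached 10 counts in each library, whose median range was 1.72-fold. The range of miR-34a-5p was thus close to that of a typical mature miRNA, while 95.2% of the 272 had a range no larger than that of miR-34b-3p.

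**Figure D3:**
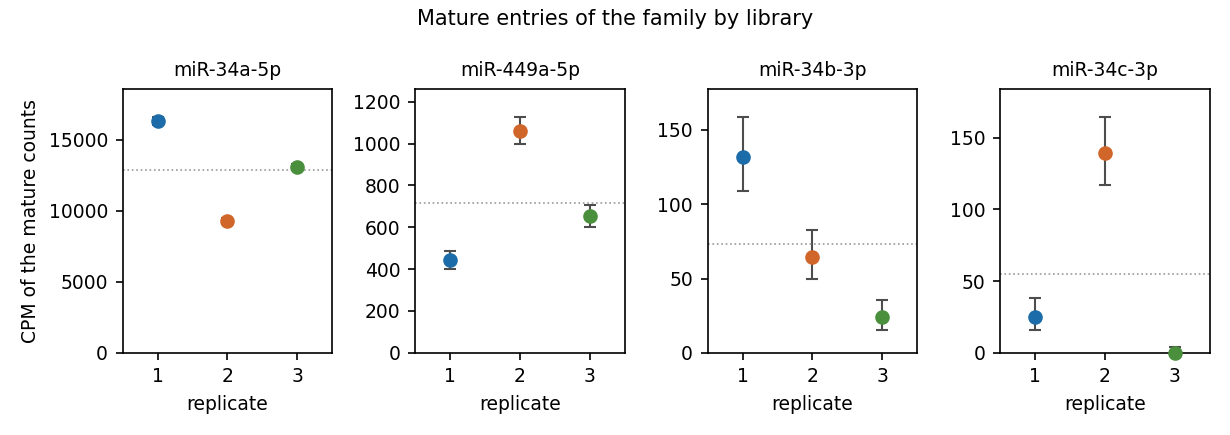
Mature level in CPM of each counted member in replicates 1 to 3, with exact binomial 95% intervals for counting error and the mean of the libraries as a dotted line. miR-34a-5p is lowest in replicate 2, where miR-449a-5p and miR-34c-3p are highest.

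The mature miRNAs whose levels over the 3 libraries were most like those of miR-34a-5p were miR-669l-5p, miR-451a, miR-15b-5p, miR-431-5p and miR-423-3p. Likeness was the Euclidean distance between log2 CPM values centred over the libraries, over 148 mature miRNAs that reached 100 counts in each library, and it ranged from 0.10 for miR-669l-5p to 0.25 for miR-423-3p. Each of the 5 was highest in replicate 1 and lowest in replicate 2, as miR-34a-5p was, which largely follows from the way they were picked. Since only 3 libraries enter, and they share their depth with every miRNA, this is a description of these libraries. miR-451a, an erythroid miRNA, had 519, 317 and 398 CPM in replicates 1, 2 and 3, and the erythroid list summed to between 0.0390% and 0.0607% of the mature counts, with all its 6 counted entries included. Its part in the levels of miR-34a-5p was not tested.

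miR-34a-5p led the hairpin entries of the family as well. It had 4943, 3839 and 4310 hairpin counts in replicates 1, 2 and 3, or 7918 ± 1915 CPM of the hairpin counts (SD, n = 3), rank 26 among the hairpin entries. As in the mature entries, replicate 1 was the highest and replicate 2 the lowest. miR-449a-5p had 10, 70 and 68 hairpin counts, miR-34c-3p 27, 48 and 40, and miR-34b-3p 26, 46 and 1. Unlike in the mature entries, the hairpin counts of miR-34b-3p and miR-34c-3p together exceeded those of miR-449a-5p in replicates 1 and 2. miR-34c-3p, with no mature count in replicate 3, thus kept 40 hairpin counts there, whereas miR-34b-3p had 1 hairpin count beside 23 mature ones. The family held 0.811% ± 0.185 of the hairpin counts (SD, n = 3).

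The mature share, the mature counts as a percentage of mature plus hairpin counts, was 74.6%, 72.6% and 75.0% for the family in replicates 1, 2 and 3, against 63.7%, 62.1% and 62.5% for the sum of all other miRNAs. The family lay higher in each, and the difference was 11.3 ± 1.09 percentage points (SD, n = 3; two-sided exact permutation of signs, p = 0.25, Benjamini-Hochberg adjusted 0.292). With 3 libraries the smallest p of this exact test is 0.25, so that it could not pass a threshold of 0.05, and the adjustment covers 7 comparisons, of which those with miR-34a-3p and miR-34c-5p are void because these are at 0. Against the median of the other identifiers with at least 10 mature plus hairpin counts in every library the difference was 26.7 percentage points. Mature counts exceeded hairpin counts in every library for 3 of the 4 members with that many counts, miR-34a-5p, miR-449a-5p and miR-34b-3p, beside 35.4% of the 395 identifiers of this kind. For miR-449a-5p the mature share was 97.5%, 93.8% and 90.3%, higher in each library than the 74.2%, 70.9% and 74.6% of miR-34a-5p. Reads of the precursor entries named after Rfam families, given below, are not in these shares. The mir-449 entry of that kind had 106, 35 and 692 counts in replicates 1, 2 and 3, against 385, 1066 and 630 mature counts of miR-449a-5p. The order in replicate 3 thus depends on leaving these precursor reads out. miR-34c-3p ranged from 0% of 40 counts in replicate 3 (exact 95% interval up to 8.81%) to 74.5% of 188 counts in replicate 2.

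**Figure D4:**
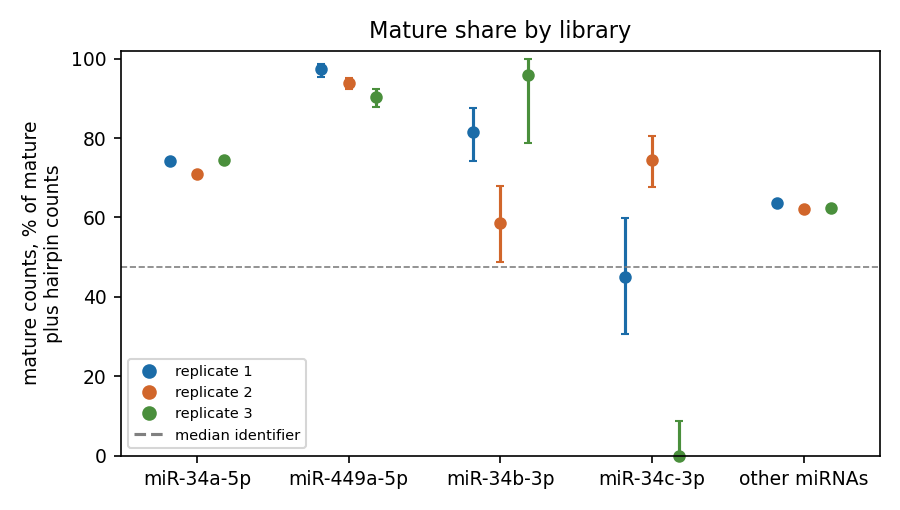
Mature counts as a percentage of mature plus hairpin counts for the 4 members with mature counts and for all other miRNAs summed, 1 point for each replicate with its exact binomial 95% interval. The dashed line is the mean over libraries of the median identifier, 47.6%, and miR-449a-5p lies above 90% in every library. Precursor entries named after Rfam families are not counted.

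Of the mature entries counted in any library, 54.1% had counts in all 3, and so had 3 of the 4 mature entries of the family. miR-34c-3p was the exception.

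The family was set beside other miRNA groups known from germ cells or gonads. The miR-506 family of the X chromosome, which is enriched in testis, held 1.34%, 1.55% and 1.74% of the mature counts in replicates 1, 2 and 3, led by miR-470-5p. The miR-34 and miR-449 family was above it in replicate 1 and below it in replicates 2 and 3, and the log2 ratio of -0.19 ± 0.46 (SD, n = 3) was smaller than its spread (two-sided exact permutation of signs, p = 0.5, adjusted 0.5). miR-202 and miR-140 held more than the family in every library, with a log2 ratio of the family to them of -0.93 ± 0.58 (SD, n = 3). The let-7 and miR-98 list exceeded the family in every library as well, and the log2 ratio of the family to it was -4.42 ± 0.46. The clusters of miR-290 to miR-295 and of miR-302 and miR-367, known from pluripotent cells and germ line stem cells, held only 0.0314% ± 0.000789 of the mature counts, and the log2 ratio of the family to them was 5.42 ± 0.38 and above 0 in every library (4.78 with mature and hairpin entries summed). For each of the last 3 lists the same exact permutation test gave p = 0.25, adjusted 0.292, with n = 3 libraries.

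**Figure D5:**
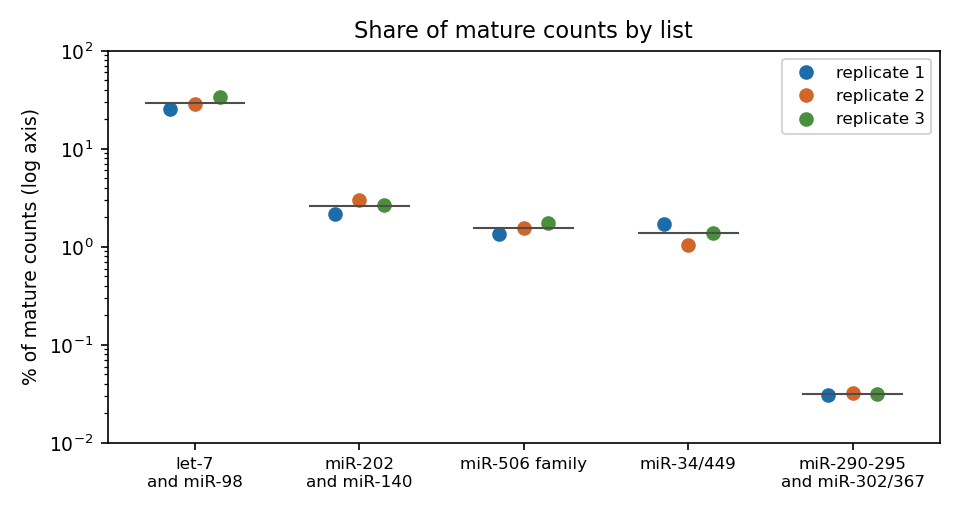
Share of the mature counts held by the miR-34 and miR-449 family and by 4 other groups of miRNAs, on a log axis, with 1 point for each replicate and a bar at the mean. The points of the family span those of the miR-506 family in part, below let-7 and miR-98, and far above the clusters of miR-290 to miR-295 and of miR-302 and miR-367.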

How the data were processed

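Small RNA of 3 libraries of PND7 testis EVs was sequenced on the BGISEQ-500 platform. The authors removed low-quality reads and mapped clean reads with Bowtie2 and cmsearch to the genome (mm10 per the submitters' processing notes) and to small RNA databases, each read being given to 1 class in a fixed order that began with miRBase. The deposited values are raw read counts of each entry and of each class. Mismatches allowed are not given in the sources used here. A further column, named for molecular identifiers, held the same numbers as CPM of clean reads wherever a row names a small RNA, and was left unused, so PCR copies were not told apart.

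The deposited counts of members were scaled to CPM of the mature or hairpin counts of the library, missing entries taken as 0, and given as mean ± SD. Intervals are exact binomial. Ratios within libraries were tested by an exact two-sided permutation of their signs, 0.5 being added where a count was 0. The named miRNAs were all members, miRNAs with a member's seed, the neighbours of the highest member in rank (2 on each side), the 5 most alike to it over the libraries, the most abundant miRNA of each list, and Rfam entries named mir-34 or mir-449. The members and lists were chosen with earlier results of these data known. Libraries were compared in pairs by chi-square divided by its degrees of freedom, which lay between 96.6 and 187 over 272 miRNAs, against at most 1.17 in 20 simulated pairs that differed by counting noise alone. No pair thus looked like the same library deposited again, and the libraries were taken as biological replicates because the labels say so. Alternatives changed the denominator, the scaling, the entry types, a filter of 10 counts, pooling, and the libraries included. Sequences came from RefSeq (GRCm38.p6) and positions from GENCODE vM21. Python 3.11.15, numpy 2.4.6, pandas 2.3.3, SciPy 1.17.1 and matplotlib 3.10.9 were used.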

Additional observations from a re-analysis of the deposited data

Results flagged for a closer look

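Beside the mature and hairpin entries, the catalogues hold precursor entries named after Rfam families, which the comparisons did not use, and 2 of these are named for the family. Both are given here because their counts lie above the limit of 3 counts in every library. The Rfam mir-34 precursor family had 1006, 857 and 236 counts in replicates 1, 2 and 3, or 8564, 5444 and 1588 CPM of the precursor counts. The Rfam mir-449 precursor family had 106, 35 and 692 counts, or 902, 222 and 4655 CPM. The mir-34 family was thus lowest and the mir-449 family highest in replicate 3. Their highest level exceeded the lowest 5.39-fold and 20.9-fold, beside a median of 1.82-fold over 95 Rfam precursor families with at least 10 counts in every library, and no other of these had a wider range than mir-449. The mature counts of the miR-449 cluster did not follow, with 385, 1066 and 630 counts in the same order, and the precursor reads came to 0.275, 0.0328 and 1.10 times these counts. How the authors divided reads between the Rfam entries and the miRBase entries beyond the order of databases is not given in the sources used here, and the cause of the difference between libraries was not tested. No member or list could be examined for single libraries that stand apart, because the group holds 3.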

How the results depend on the processing

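Of 92 values of 16 results under the alternatives, none reversed. Values without a test left the range of 1 SD in 4 cases, by construction of the denominator. Of the 92, 48 left out a replicate, which cannot move a mean of 3 libraries by 1 SD. Nor can it reverse a log2 ratio or difference that has the same sign in every library. For these 48 values the outcome was thus mostly fixed in advance and says nothing about stability. The family held 1.37% of the mature counts, 0.865% of mature plus hairpin counts and 0.0485% of the clean reads, and miR-34a-5p had 12884 CPM of the mature counts, 8119 of mature plus hairpin counts and 454 of the clean reads. Leaving out each replicate in turn gave family shares from 1.21% to 1.53%, miR-34a-5p ranks from 14 to 19, a share of miR-34a-5p in the family from 91.5% to 95.8%, and 4 members counted in every library without replicate 3. The log2 ratio to the miR-506 family ranged from -0.45 to -0.0020, the latter without replicate 2. With mature and hairpin entries summed, miR-34a-5p ranked 18, and the log2 ratio of the family to the clusters of miR-290 to miR-295 and of miR-302 and miR-367 went from 5.42 to 4.78, beyond its SD of 0.38. With at least 10 counts in every library that ratio was 5.91. Taken against the median of the other identifiers, the difference in mature share went from 11.3 to 26.7 percentage points. Against miR-34a-3p or miR-34c-5p, both at 0, the log2 ratio of miR-34a-5p was 14.54 with 0.5 added to the counts and 16.14 with the libraries pooled, sizes set by the 0.5. With at least 10 counts in every library, miR-34c-3p was lost and the share of Mir34b and Mir34c fell from 1.01% to 0.526%. Ratios were compared within libraries, but no comparison of conditions, paired or not, was possible because there is a single group. The members below about 100 counts have wide counting error, and the permutation of signs cannot pass 0.05 with 3 libraries, so a p of 0.25 says nothing about stability.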
